A study of Saccharomyces cerevisiae with 161 samples.

Results

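Chromosome XII of budding yeast (Saccharomyces cerevisiae) is one of the longer chromosomes and the only one that carries the rDNA array. The regions described are the called binding peaks of the meiotic axis proteins Red1, Hop1 and Rec8 on this chromosome in wild-type SK1, taken from the deposited peak lists by their chromosome name alone. They comprise 134 broad peaks of each of the 3 proteins, 402 of 4677 in the genome, and 193 of 2385 point summits of Red1, for a total of 595 of 7062 regions.

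SK1 is a strain background that enters meiosis rapidly and synchronously. The peak lists rest on chromatin immunoprecipitation followed by sequencing (ChIP-seq) of wild-type diploids 3 h into meiosis, with 4 Red1, 4 Hop1 and 2 Rec8 ChIP samples out of 161 samples in the series. Red1 was precipitated in 3 samples of strain H119 and 1 of H6408, Hop1 in 2 samples of H574, 1 of H119 and 1 of H6408. The H6408 strain carries the tagged allele SMC4-PK9 and its Red1 and Hop1 samples share an input, while Rec8 was precipitated through an HA tag in strain H4471 in both samples. Each list combined the replicates of its protein, so no value below has a replicate error. In its place, values of chromosome XII are given beside those of chromosomes VII, XIII and XVI, which are also long and were chosen for the comparison, and beside the mean ± SD over the 12 other longer chromosomes (all but I, III and VI, the 3 shortest). Shares of peaks carry 95% Wilson intervals, which cover counting error only and treat peaks as independent.

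In meiotic prophase, each pair of sister chromatids is organised as an array of loops anchored to a protein axis. Rec8 is the meiotic kleisin subunit of cohesin, the ring complex that holds sister chromatids together and marks sites of axis attachment. Red1 is a structural axis protein that binds Hop1, a HORMA-domain protein, and both promote the formation of meiotic double-strand breaks and their repair from the homologous chromosome. The rDNA array consists of tandem repeats of the ribosomal RNA genes, a region where meiotic recombination is known to be suppressed. The position of the array and of the centromere in the SK1 coordinates of the files was not used here, so no stretch described below is assigned to either.

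All 3 proteins had peaks along most of chromosome XII. The first peak of any protein started at position 7352 and the last ended at position 1023499, a span of 1016 kb, the 4th longest of 16 chromosomes. Red1 peaks began only at position 15165 and Hop1 peaks at 15325, and the last Rec8 peak ended at 1014930. This span made up 8.71% of the genome's total, and chromosome XII held 8.53% of Red1 peaks, 8.85% of Hop1 peaks and 8.42% of Rec8 peaks. The density was therefore 1.32 peaks per 10 kb for each protein, beside 1.37 ± 0.101 for Red1, 1.32 ± 0.0702 for Hop1 and 1.37 ± 0.0909 for Rec8 on the 12 other longer chromosomes (SD over chromosomes).

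Red1 peaks covered 27.4% of chromosome XII. The share was 28.99% on chromosome VII, 27.3% on XIII and 26.0% on XVI, and 28.7 ± 3.23% on the 12 other longer chromosomes, 8 of which lay above XII. Hop1 peaks covered 26.7% of XII, against 27.0% of VII, 26.7% of XIII, 25.9% of XVI and 27.8 ± 2.94% of the 12. Rec8 peaks covered 24.1%, against 24.3%, 25.0% and 24.7% on the same chromosomes and 25.1 ± 1.53% over the 12. Every one of these differences between XII and the mean of the 12 was smaller than 1 SD.

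**Figure D1:**
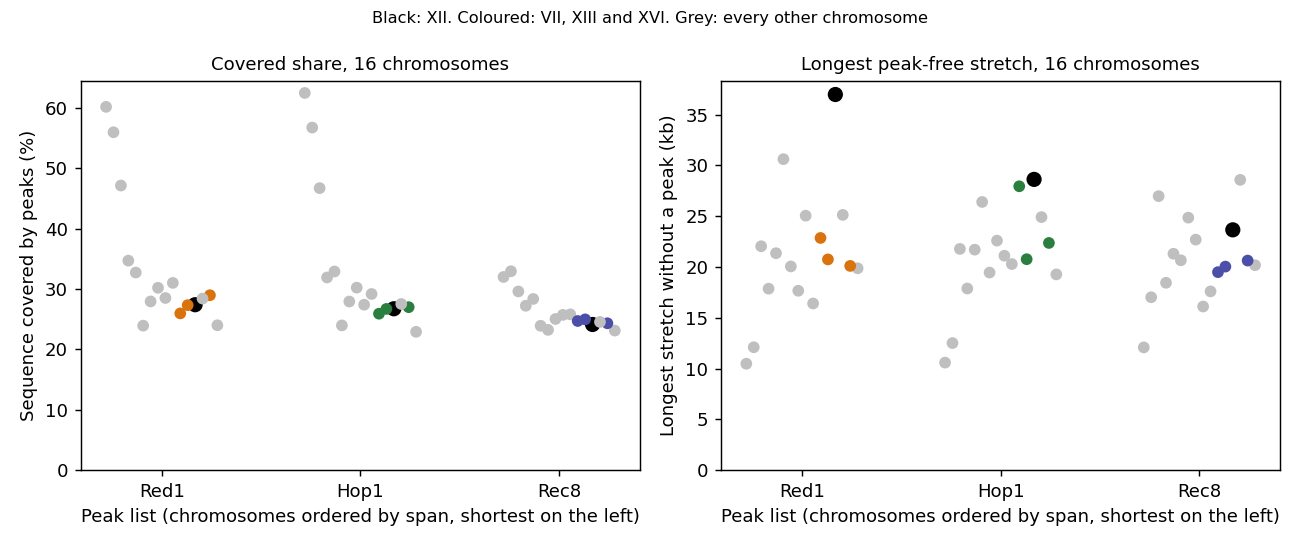
The left panel plots the percentage of each chromosome covered by peaks and the right panel the longest stretch without a peak in kb, for each protein, with 1 point per chromosome. Chromosome XII (black) sits among the longer chromosomes at 27.4%, 26.7% and 24.1% coverage, but has the longest stretch without a Red1 peak (37.0 kb) and without a Hop1 peak (28.6 kb).

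Peaks on chromosome XII were of ordinary width, and their median heights ranked low among the chromosomes. Red1 peaks had a median width of 1817 bp, Hop1 peaks one of 1736 bp and Rec8 peaks one of 1584 bp. Peak height is the fold enrichment of ChIP over input that the peak caller gave for the whole peak, where 1 means no enrichment. Its median stood at 1.53-fold in the Red1 list, 1.48-fold in the Hop1 list and 1.54-fold in the Rec8 list. The corresponding means over the 12 other longer chromosomes were 1.62 ± 0.0579, 1.58 ± 0.0518 and 1.64 ± 0.0518, and the median of XII was the lowest of all 16 chromosomes for Hop1 and Rec8 and 14th of 16 for Red1. Of the comparison chromosomes, VII was closest, with 1.51-fold for Red1, 1.48-fold for Hop1 and 1.59-fold for Rec8. Counted against the median of the whole list, 61 of 134 Red1 peaks (45.5%, interval 37.3 to 54.0%), 62 Hop1 peaks (46.3%, 38.0 to 54.7%) and 59 Rec8 peaks (44.0%, 35.9 to 52.5%) of chromosome XII lay above it. All 3 intervals include the 50% that holds for the list as a whole, so this count shows no shift beyond counting error.

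Peaks were evenly matched in spacing between the proteins. The median distance between midpoints of neighbouring peaks came to 6821 bp in the Red1 list, 6616 bp in the Hop1 list and 6704 bp in the Rec8 list. The distances for Red1 were 5782 bp on VII, 6645 bp on XIII and 5707 bp on XVI, with 6305 ± 531 bp over the 12 other longer chromosomes. From edge to edge, the median gap between peaks measured 4528 bp between Red1 peaks, 4328 bp between Hop1 peaks and 4742 bp between Rec8 peaks.

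**Figure D2:**
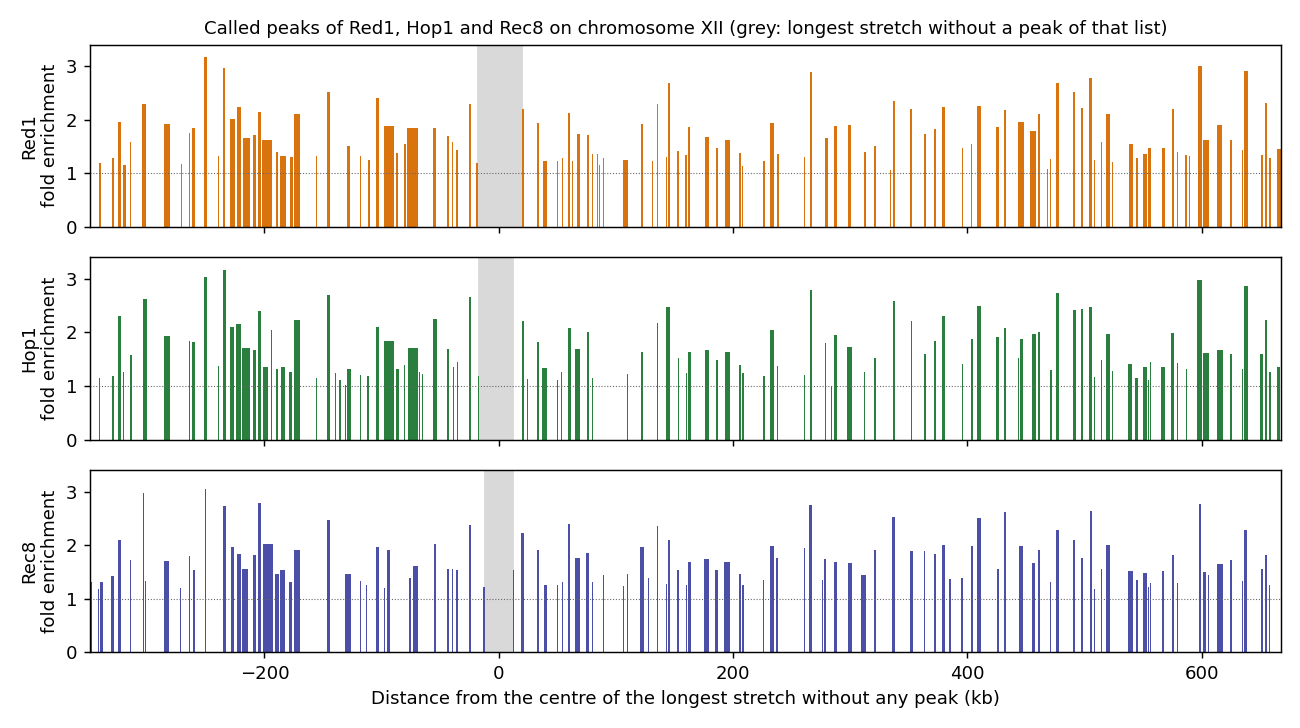
Every called peak of Red1, Hop1 and Rec8 on chromosome XII is drawn as a bar whose width is the peak's width and whose height is its fold enrichment over input, against distance in kb from the centre of the longest stretch without any peak (dotted line, 1-fold). The 3 tracks share most positions, and the grey stretches without a peak of that protein fall together at the centre. The 3 widest peaks of Red1 and of Hop1 lie to their left, as does the widest Rec8 peak.

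The 3 proteins occupied largely the same sites. Of 134 Red1 peaks, 122 (91.0%, interval 85.0 to 94.8%) met a Hop1 peak by at least 1 bp, and 90.9% of Red1 peaks did so in the genome as a whole. A Rec8 peak was met by 119 Red1 peaks (88.8%, 82.4 to 93.1%), where the genome-wide share was 86.3%. Among Hop1 peaks, 125 (93.3%) met Red1, with 95.2% genome-wide, and 116 (86.6%) met Rec8, with 89.3% genome-wide. Among Rec8 peaks, 126 (94.0%) met Red1 and 119 (88.8%) met Hop1, with 91.2% and 90.1% genome-wide. For each of these pairs, the genome-wide share lay inside the counting interval of chromosome XII.

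In bases, 19.2% of the chromosome lay under peaks of all 3 proteins, 6.61% under exactly 2 and 7.34% under exactly 1, while 66.8% had no peak. The share without any peak was 65.0% on VII, 67.1% on XIII and 67.6% on XVI. Red1 and Hop1 without Rec8 covered 42.3 kb, or 4.16% of chromosome XII, beside 5.37% of VII, 3.79% of XIII and 3.62% of XVI. Rec8 peaks contained 75.5% of the Red1 peak length of XII (70.4% on VII, 77.2% on XIII, 78.3% on XVI), and conversely Red1 peaks contained 85.8% of the Rec8 peak length.

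When touching peaks were merged into sites, chromosome XII had 145 sites, of which 111 (76.6%) held all 3 proteins. The share was 70.3% on VII, 84.1% on XIII and 78.8% on XVI. A further 8 sites on XII held Red1 and Hop1 without Rec8, 4 held Red1 and Rec8, 1 held Hop1 and Rec8, and each protein was alone at 7 sites. These lone peaks were narrow and low. Lone Red1 peaks had a median height of 1.15-fold, lone Hop1 peaks 1.19-fold and lone Rec8 peaks 1.26-fold, compared with 1.64-fold, 1.63-fold and 1.63-fold for the peaks of the same list that met both partners.

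Lone peaks made up 5.22% of each list on the chromosome (7 of 134, interval 2.55 to 10.4%). Genome-wide, 5.98% of Red1 peaks, 2.64% of Hop1 peaks and 6.91% of Rec8 peaks stood alone, and each share lay within that interval. The Hop1 share lay only just above the lower bound of 2.55%, and the genome-wide counts include chromosome XII itself. Of merged sites, 4.83% held Hop1 alone on XII, against 1.82% on VII, 3.17% on XIII and 3.03% on XVI. For sites with Red1 alone or Rec8 alone, XII lay within the range of these chromosomes. The strongest lone Red1 peaks were chrXII:440181-440466 (1.36-fold), chrXII:418815-419542 (1.23-fold) and chrXII:247088-247428 (1.16-fold). For Hop1 they were chrXII:288254-288685 (1.25-fold), chrXII:77328-77543 (1.23-fold) and chrXII:290977-291600 (1.21-fold), the first and last of which lie to the right of the widest merged site described below. For Rec8 they were chrXII:608049-608276 (1.35-fold), chrXII:7352-8978 (1.32-fold) and chrXII:627927-628127 (1.26-fold), and the second of these is the outermost peak on the left of the chromosome. The lowest Hop1 peak in the genome, chrXII:639911-640682 with 1.01-fold enrichment and a -log10 q of 3.63, was also among the lone peaks of XII. It was picked out after its value was seen.

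Where a peak of one protein met exactly 1 peak of another and the reverse also held, the pair could be compared directly. The 113 Red1 and Hop1 pairs on XII had a median distance of 114 bp between midpoints, and their fold enrichments ranked alike (Spearman rho = 0.953). For the 105 Red1 and Rec8 pairs the distance was 137 bp and rho was 0.881, and for the 105 Hop1 and Rec8 pairs the distance was 156.5 bp and rho was 0.898. These correlations describe peaks of 1 chromosome that share the same genome and, for Red1 and Hop1, partly the same input. Either partner could be the wider one, with width ratios from 0.350 to 4.40 for Red1 over Hop1 and from 0.347 to 7.23 for Red1 over Rec8. Red1 was wider in 60 of 105 pairs with Rec8 (57.1%, interval 47.6 to 66.2%) and in 49 of 113 pairs with Hop1 (43.4%, 34.6 to 52.6%). On VII, XIII and XVI, Red1 was wider in 58.5%, 69.0% and 57.3% of its pairs with Rec8. With Hop1 the shares there were 53.7%, 58.1% and 54.5%, each higher than on XII, though their intervals overlapped that of XII. Across 204 bins of 5 kb, coverage by Red1 and Hop1 ranked together with rho = 0.919, Red1 and Rec8 with 0.836, and Hop1 and Rec8 with 0.806, beside 0.917, 0.783 and 0.803 on chromosome VII. The values were 0.941, 0.835 and 0.845 on XIII and 0.931, 0.858 and 0.861 on XVI, so XII lay within the range of these chromosomes for each pair of proteins.

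**Figure D3:**
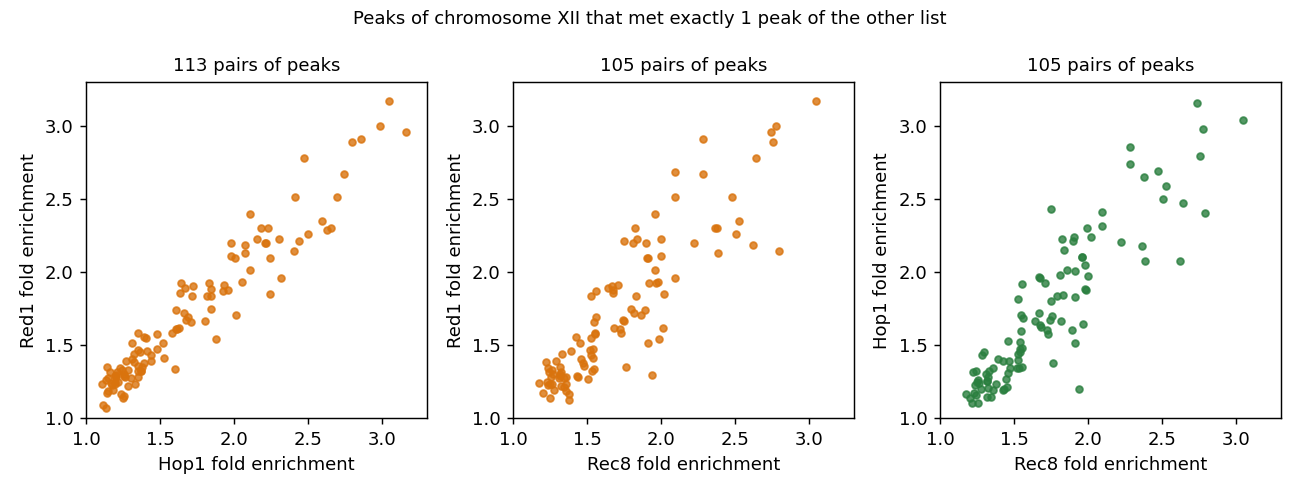
Each point is a pair of peaks on chromosome XII that met only each other, with the fold enrichment of the first protein on the vertical axis and that of the second on the horizontal axis, each on the scale of its own list. The ranks follow each other most closely in the 113 Red1 and Hop1 pairs (rho = 0.953) and less so in the 105 Red1 and Rec8 pairs (rho = 0.881).

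The strongest sites of chromosome XII were the same for Red1 and Hop1 and in part different for Rec8. Red1 was highest at chrXII:104668-106765, with 3.17-fold enrichment, the 22nd highest of 1571 Red1 peaks in the genome. It was followed by chrXII:953164-956445 (3.00-fold), chrXII:120722-122884 (2.96-fold), chrXII:992615-995442 (2.91-fold) and chrXII:621542-623490 (2.89-fold). The 5 highest Hop1 peaks met these same 5 Red1 peaks, in a slightly different order. Hop1 reached 3.16-fold at chrXII:120658-123104, 3.04-fold at chrXII:104497-106743, 2.98-fold at chrXII:952528-956453, 2.86-fold at chrXII:991965-995543 and 2.79-fold at chrXII:621852-623590.

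Rec8 shared 3 of these sites among its own 5 highest peaks. They were chrXII:104993-106626 (3.04-fold, first on the chromosome), chrXII:954133-955895 (2.77-fold) and chrXII:621346-623413 (2.76-fold). The other two were sites where Red1 ranked lower. At chrXII:52222-53595, the second highest Rec8 peak with 2.97-fold enrichment, Hop1 stood at 2.62-fold (rank 9 of 134) and Red1 at 2.29-fold (rank 16). At chrXII:150453-152904, Rec8 stood at 2.79-fold, Hop1 at 2.41-fold (rank 16) and Red1 at 2.14-fold (rank 25). Conversely, at the fourth strongest Red1 and Hop1 site, met by the Rec8 peak chrXII:992589-995232, Rec8 reached 2.29-fold and ranked 15th.

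Peaks were most crowded between positions 120658 and 186194, in the second of 10 equal segments of the chromosome. In 25-kb windows moved in 1-kb steps, the densest Red1 window was chrXII:137352-162351 with 79.4% coverage. The densest Hop1 window was chrXII:127352-152351 with 77.0%, and the densest Rec8 window was chrXII:149352-174351 with 74.5%. The maximum differed widely between chromosomes. For Red1 it was 100% on VII, 54.3% on XIII and 68.0% on XVI, for Hop1 95.2%, 54.4% and 67.4%, and for Rec8 67.3%, 46.8% and 71.1%. Of the 12 other longer chromosomes, 3 had a denser Red1 window, 3 a denser Hop1 window and 2 a denser Rec8 window than XII.

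The densest part of this stretch held wide peaks of moderate height beside narrower and higher ones. The latter included the Rec8 peak chrXII:150453-152904 (2452 bp, 2.79-fold). The stretch as a whole began with the highest Hop1 peak of the chromosome, chrXII:120658-123104 (3.16-fold). The Red1 peak chrXII:154452-162992 was 8541 bp wide with 1.62-fold enrichment, and the matching Rec8 peak chrXII:154495-163155 was 8661 bp wide, the 6th widest of 1592 Rec8 peaks, with 2.01-fold enrichment. Rec8 covered 99.5% of that Red1 peak, whereas Hop1 was called there as 2 separate peaks that covered 70.5% of it, chrXII:154487-158987 with 1.34-fold and chrXII:161425-162948 with 2.05-fold enrichment. Further left in the stretch, the Red1 peak chrXII:137412-143980 (6569 bp, 1.66-fold) was matched by the Hop1 peak chrXII:136907-143948 (7042 bp, 1.70-fold) and by a narrower Rec8 peak, chrXII:137179-141851 (4673 bp, 1.55-fold). The adjacent window, chrXII:162352-187351, reached 65.3% for Red1, 51.6% for Hop1 and 61.1% for Rec8.

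A second crowded stretch, between positions 257945 and 287268, was dense in called peaks of Red1 and Hop1 and less so in those of Rec8. The window chrXII:259352-284351 was covered to 67.3% by Red1 and 67.9% by Hop1 but to 32.5% by Rec8. The stretch held the widest Red1 peak of the chromosome, chrXII:277916-287213 (9298 bp, 1.84-fold), which with its Hop1 partner chrXII:278583-287268 (8686 bp, 1.71-fold) formed the widest merged site (9353 bp). In place of 1 broad peak, Rec8 had a peak of 2277 bp at 1.39-fold and a peak of 4480 bp at 1.61-fold, together covering 72.7% of the Red1 peak. The stretch also held the Red1 peak chrXII:258431-266620 (8190 bp, 1.89-fold), covered to 100% by the widest Hop1 peak of the chromosome, chrXII:257945-266823 (8879 bp, 1.84-fold). Rec8 had 3 peaks of 1142, 2847 and 561 bp there, with 1.20-fold, 1.90-fold and 1.28-fold enrichment, covering 51.0% of the Red1 peak. The peaks of 1142 and 561 bp had a -log10 q of only 2.16 and 4.52.

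**Figure D4:**
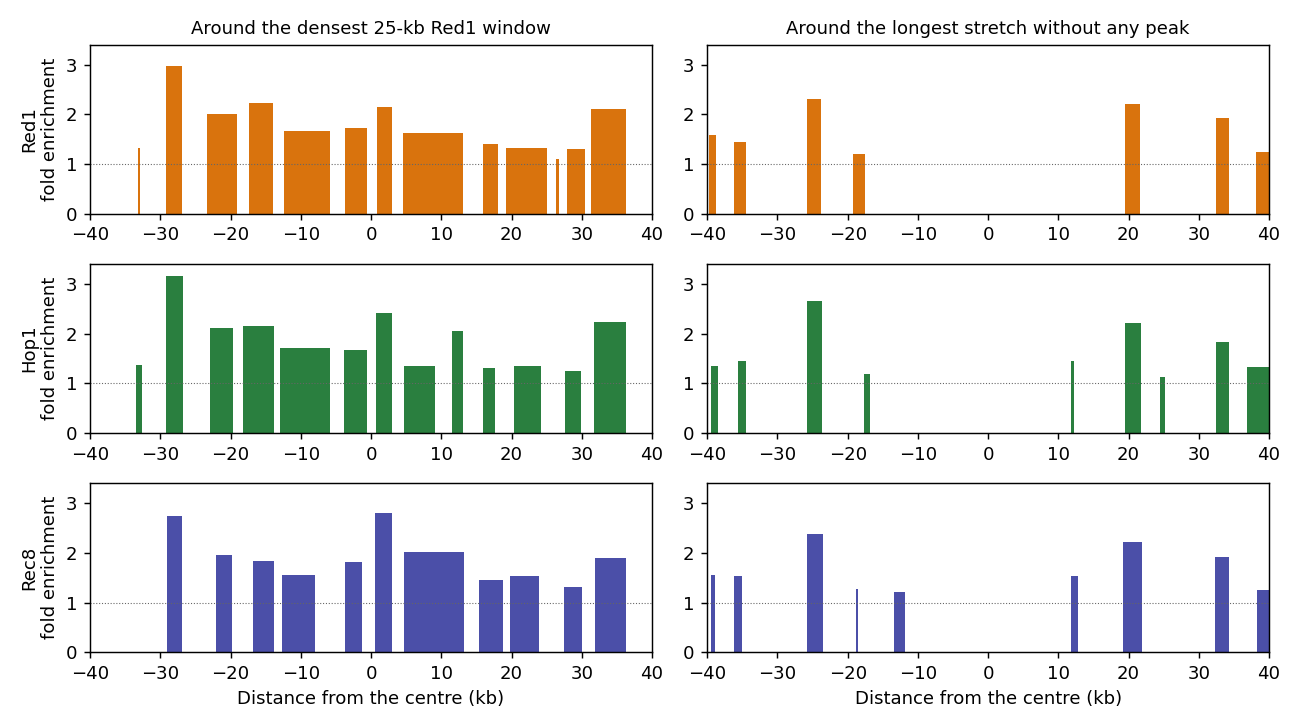
Peaks of each protein are drawn as bars of their width and fold enrichment within 40 kb of the centre of the densest 25-kb Red1 window (left, 79.4% covered) and of the longest stretch without any peak (right). On the left wide peaks of all 3 proteins follow each other closely, and on the right no peak of any protein falls within a stretch of 23.7 kb.

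After the 8661-bp peak of the first crowded stretch, the next widest Rec8 peaks of the chromosome lay outside both stretches. They were chrXII:969274-974368 (5095 bp, 1.64-fold) and chrXII:548304-553240 (4937 bp, 1.68-fold). The latter lay in another of the dense Rec8 windows, chrXII:528352-553351, where coverage was similar for the 3 proteins (39.4% for Red1, 39.8% for Hop1 and 45.0% for Rec8). The second densest Rec8 window, chrXII:124352-149351, was covered to 49.1% by Rec8 and to 70.0% by Red1 and 71.6% by Hop1. For Hop1, a dense window lay near the right end, at chrXII:950352-975351, with 55.6% coverage against 36.3% for Rec8.

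Chromosome XII contained the longest stretch of the genome without a Red1 peak and the longest without a Hop1 peak. Red1 had no peak over chrXII:338640-375613, a stretch of 36974 bp, the longest of 1555 such stretches. The longest on any other chromosome was 30612 bp, on chromosome V, and the 12 other longer chromosomes had a mean maximum of 21477 ± 3951 bp. Hop1 had no peak over chrXII:339393-368012 (28620 bp, longest of 1498), with a margin of less than 1 kb over the next, 27942 bp on chromosome XVI. Rec8 lacked peaks over chrXII:344333-367988 (23656 bp), which ranked 4th of 1576, behind 28575 bp on chromosome XV. No peak of any protein lay within this last stretch, which was the 2nd longest of 1638 stretches free of all peaks, behind 24909 bp on chromosome XV. The longest such stretch measured 17313 bp on VII, 19972 bp on XIII and 19490 bp on XVI.

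A strong site of all 3 proteins lay on either side of this empty stretch, with lower peaks between site and stretch. On the left, the last Red1 peak, chrXII:336920-338639, had 1.20-fold enrichment, the last Hop1 peak, chrXII:338448-339392, 1.18-fold, and the last Rec8 peak, chrXII:342727-344332, 1.21-fold with a -log10 q of 2.48. These Red1 and Hop1 peaks met, and a further Rec8 peak, chrXII:337389-337632 (1.28-fold), lay inside the Red1 peak. They thus formed a low site of all 3 proteins. The strong site further left had a Red1 peak at chrXII:330337-332371 (2.30-fold), a Hop1 peak at chrXII:330423-332509 (2.65-fold) and a Rec8 peak at chrXII:330381-332646 (2.38-fold). On the right, Rec8 resumed at chrXII:367989-369024 (1.54-fold) together with a narrow Hop1 peak at chrXII:368013-368429 (1.45-fold), with no Red1 peak called there. Red1 resumed at chrXII:375614-377835 (2.20-fold), where Hop1 (chrXII:375653-377956, 2.21-fold) and Rec8 (chrXII:375363-378096, 2.22-fold) also had peaks. The distance between the Red1 summits on either side was 39176 bp, and the largest distance on any of the 12 other longer chromosomes was 31841 bp (mean of maxima 24740 ± 3613 bp).

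The remaining peak-free stretches were shorter than the longest ones of VII, XIII and XVI. The next longest were chrXII:446369-462301 (15933 bp), chrXII:55761-69979 (14219 bp), chrXII:880600-893541 (12942 bp) and chrXII:694538-707011 (12474 bp). In all, 14 stretches without any peak exceeded 10 kb on XII, compared with 13 on VII, 14 on XIII and 11 on XVI. The median over all 144 stretches of XII was 3708 bp (3325 bp on VII, 3708 bp on XIII, 3375 bp on XVI).

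Some stretches lacked only some of the proteins. Over chrXII:935771-954132, the second longest stretch of XII without Rec8 (18362 bp), 4 Red1 and 6 Hop1 peaks lay wholly or partly inside. They covered 2851 bp and 2932 bp of it. The counts include edge peaks that met Rec8 just outside, such as chrXII:953164-956445 for Red1 and chrXII:952528-956453 for Hop1. Over chrXII:594516-616780, the second longest stretch without Hop1 (22265 bp, 7th of 1498), there were 5 Rec8 and 2 Red1 peaks, wholly or partly inside. They covered 1411 bp and 832 bp of it, and again included edge peaks that met Hop1 just outside, such as chrXII:593299-595066 for Red1. The same region gave the second sparsest 25-kb window of Red1 and Hop1, chrXII:595352-620351, with 2.58% and 1.90% coverage and 7.07% for Rec8. The sparsest Rec8 window, chrXII:437352-462351, was covered to 3.72% by Rec8, 2.55% by Hop1 and 8.68% by Red1. Of all 25-kb windows on XII, 1.21% held no Red1 peak. Such windows did not occur on VII, XIII or XVI but did on V (0.949%) and XV (0.297%). Windows without a Hop1 peak made up 0.302% on XII, 0.345% on XVI, 0.190% on V and 0.198% on XV. The other named sparse windows were chrXII:339352-364351 (0% Red1), chrXII:694352-719351 (7.61% Red1), chrXII:340352-365351 (0% Hop1), chrXII:344352-369351 (4.14% Rec8) and chrXII:42352-67351 (6.38% Rec8).

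Coverage therefore varied along the chromosome. In 10 equal segments of 101.6 kb, Red1 coverage ranged from 17.7% in segment 4, which holds the longest empty stretch, to 47.3% in segment 2. Hop1 ranged from 16.7% in segment 7 to 43.7% in segment 2, and Rec8 from 18.2% in segment 4 to 40.9% in segment 2. The segment maxima on other chromosomes were 57.0% for Red1 on VII, 36.7% on XIII and 39.5% on XVI. The balance of the proteins also shifted. Red1 coverage was 1.50 times that of Rec8 in segment 10 and 1.37 times in segment 3, and 0.848 times in segment 7. Hop1 coverage was 1.64 times that of Rec8 in segment 10, 1.52 times in segment 3 and 0.762 times in segment 7. On VII the Red1 to Rec8 ratio ranged from 0.804 to 1.57, on XIII from 0.686 to 1.50 and on XVI from 0.687 to 1.50, so that highest minus lowest was 0.648 on XII against 0.770, 0.815 and 0.814. The same difference for the Hop1 to Rec8 ratio was 0.881 on XII against 0.590 on VII, 0.787 on XIII and 0.660 on XVI. The ratio to Rec8 thus varied least on XII for Red1 and most on XII for Hop1 among these chromosomes.

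**Figure D5:**
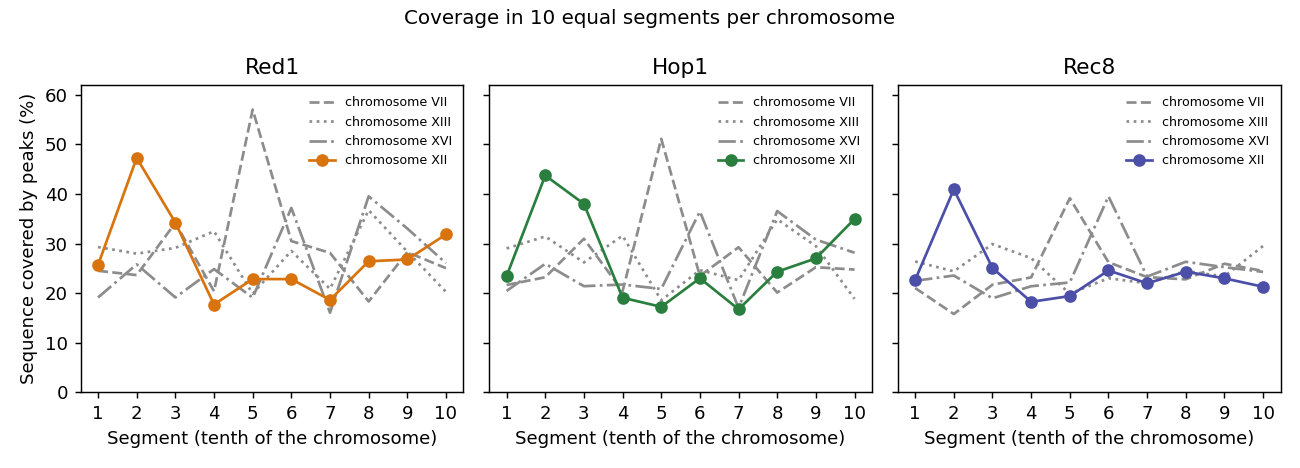
The percentage of sequence covered by peaks is plotted for each of 10 equal segments, numbered from the left end, with chromosome XII as coloured circles and chromosomes VII, XIII and XVI as grey lines. On XII all 3 proteins are highest in segment 2 (47.3%, 43.7% and 40.9%), and from segment 7 to segment 10 Red1 and Hop1 rise while Rec8 does not.

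The sequence left of the longest empty stretch (337 kb) was more densely covered than the sequence right of it (656 kb). Red1 covered 34.8% on the left and 24.6% on the right, Hop1 33.7% and 24.1%, and Rec8 28.9% and 22.5%. The number of peaks per 10 kb on the left and on the right was 1.31 and 1.37 for Red1, 1.42 and 1.31 for Hop1, and 1.37 and 1.34 for Rec8. Median widths were larger on the left, at 2077 bp against 1578 bp for Red1, 1911 bp against 1706 bp for Hop1 and 1902 bp against 1509 bp for Rec8. The larger coverage on the left thus went with wider peaks for each protein. For Hop1, and to a small extent for Rec8, it also went with more peaks per 10 kb.

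The ends of the span between the first and last called peaks differed in the proteins they held. By this definition the left end opens with a Rec8 peak and the right end closes with a Red1 peak. Part of the difference is therefore built in, and sequence beyond the span was not counted. In the leftmost 20 kb of the span, Rec8 covered 37.6%, Red1 16.2% and Hop1 10.3%. In the rightmost 20 kb the order was reversed, with 42.1% for Hop1, 34.9% for Red1 and 20.3% for Rec8. The last peaks on the right were a Red1 peak at chrXII:1020486-1023499 (1.45-fold) and a Hop1 peak at chrXII:1020487-1023497 (1.36-fold), neither of which met a Rec8 peak. On the left the outermost peaks, chrXII:7352-8978 (1.32-fold) and chrXII:14162-14630 (1.19-fold), were Rec8 peaks without a partner. Each end rests on 3 or 4 peaks per protein.

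The 193 Red1 summits, called separately from the broad peaks, gave a finer view. Their density was 1.90 per 10 kb, beside 2.03 ± 0.165 on the 12 other longer chromosomes, and their median spacing was 3857 bp, beside 3373 ± 419 bp. The spacing was wider than on VII (3300 bp) and XVI (3492 bp) and narrower than on XIII (4240 bp). When only summits with scores above the median were kept, the spacing on XII was 8928 bp. The median summit score, as the peak caller wrote it, was 152 on XII and 176 ± 23.6 on the 12.

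Each summit fell inside a broad Red1 peak, and 186 (96.4%) fell inside a Hop1 peak, with 96.2% genome-wide. Inside a Rec8 peak lay 173 summits (89.6%, interval 84.5 to 93.2%), with 85.1% genome-wide. The median score was 193 for summits inside Rec8 peaks and 49.6 for the 20 summits outside them. Of the 134 broad Red1 peaks, 16 held no summit, 64 held 1 and 54 (40.3%) held 2 or more, counts that were made for XII only. The highest number was 5, reached by chrXII:137412-143980 and chrXII:154452-162992, both in the crowded stretch of segment 2. In the first of these the summits lay 517 to 2122 bp apart with scores from 31.2 to 843, and 4 of the 5 fell inside a Rec8 peak.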

How the data were processed

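ChIP-seq reads were aligned by the authors with Bowtie to the SK1 genome, keeping perfect matches at 1 location, so reads from repeated sequence such as the rDNA are not resolved. Replicates were combined before broad peaks were called with MACS2 2.1.1 at its default q-value. Deposited values were fold enrichment (a ratio of ChIP over input) and the −log10 q of each peak. The Red1 summits carry a deposited score of at least 20.0 whose type is not stated. For RNA-seq, 1 library was deposited in TPM. Read depth per sample is unknown from these files. Libraries were scaled separately, so heights are compared within a list. Coverage depends on which peaks were called, and Rec8 rests on 2 ChIP samples against 4 each for Red1 and Hop1. How far this affects coverage compared between proteins was not tested.

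Peaks were read as 1-based SK1 coordinates. The span runs from the first to the last peak of any list, so sequence beyond it was not counted. Coverage, spacing, overlap (at least 1 bp), 25-kb windows and 5-kb bins were computed with Python 3.11.15, NumPy 2.4.6, pandas 2.3.3 and SciPy 1.17.1. Covered bases, the longest peak-free stretch and the number of overlapping peaks were tested on simulated data with known intervals. Spacing, windows and bins were not tested in this way. With 1 combined list per protein no test between samples could be run, and replicates could not be left out. The reference annotation at hand is of another strain and was not used, so peaks have no gene annotation.

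Named peaks are the 5 highest and 3 widest of each list, the 3 highest lone peaks, the 5 longest peak-free stretches, the 3 densest and 3 sparsest windows per protein and the Red1 peak with most summits; others were named after their values were seen, to describe a named stretch. Alternatives were peaks with −log10 q of at least 5, other window and bin sizes, an overlap of at least 50%, joined peaks, and omission of the ends or of the longest empty stretch. Members and measures were chosen with earlier results of these data known.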

Additional observations from a re-analysis of the deposited data

How the results depend on the processing

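Of 63 alternatives, 3 of them added after seeing the data, 34 moved a value by less than the SD over the 12 other longer chromosomes (or the counting interval for a share) and 29 moved it further. Peaks with −log10 q of at least 5 numbered 127 for Red1, 123 for Hop1 and 105 for Rec8. With these alone, Rec8 coverage was 22.0% on chromosome XII, against 23.1% on VII and 23.8% on both XIII and XVI. Of the 12 other longer chromosomes, 11 then lay above XII, compared with 9 when all peaks were used. Density fell to 1.21 peaks per 10 kb for Hop1 and 1.03 for Rec8, and Rec8 midpoints lay 8533 bp apart. The share of Red1 and of Hop1 peaks meeting Rec8 was 79.5% and 78.0%. That of Rec8 peaks meeting Red1 and Hop1 was 97.1% and 93.3%, and 79.3% of summits lay in Rec8 peaks. The stretch without any peak grew to 28596 bp and that without Rec8 to 35342 bp (the added alternative), which then was the longest of 16 chromosomes, since weak peaks at its edge dropped out. The longest Red1 and Hop1 stretches remained 36974 and 28620 bp. With at least 50% of a peak covered, overlap was 82.8% for Red1 with Hop1, 79.9% for Red1 with Rec8, 76.1% for Hop1 with Rec8 and 79.1% for Rec8 with Hop1. These alternative overlap shares are for chromosome XII only. The comparison with genome-wide shares was made only for all peaks and an overlap of at least 1 bp.

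Rank correlations of bins were lower in 10-kb bins (0.903 for Red1 with Hop1, 0.759 for Hop1 with Rec8), in 20-kb bins (0.895, 0.723 for Red1 with Rec8, 0.713) and when peak midpoints were counted (0.760, 0.714, 0.699). The densest 10-kb windows were covered to 93.0%, 91.4% and 86.6% by Red1, Hop1 and Rec8, and the densest 50-kb Hop1 window to 63.4%. When only summits with scores above the median were kept, they lay 8928 bp apart and 100% were inside Rec8 peaks. Apart from the fewer peaks or the other size that each alternative brings by construction, the cause was not tested. No paired analysis was possible because the replicates of a protein entered 1 list together and a single RNA-seq library was made. Without read counts, differences between chromosomes have no sampling error, and a stretch without a peak shows only that no peak was called there.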

Other observations

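The single RNA-seq library of strain H119, labelled 3 h although the study's description of it names a different time, gives transcript levels by SK1 gene identifier, whose numeric field takes 16 values that follow the chromosome spans in gene number (Spearman rho = 0.997 over 16 fields). Field 12 held 470 genes, the 4th largest number. Their median level was 68.5 TPM (quartiles 35.7 and 144), beside a mean of medians of 73.0 ± 9.62 TPM over the fields of the 12 other longer chromosomes. The highest levels were 2232 TPM for SK1_12G03500 and 2006 TPM for SK1_12G00240. The table holds no coordinates, so genes were not matched to peaks, and the library has no replicate.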
